A study of Mus musculus with 6 samples.

Results

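The genes described here are Olfm2, Prg4, Tmeff1, Moxd1, 2310007B03Rik (RefSeq symbol Mab21l4) and 2010011I20Rik (RefSeq symbol Fam210b), 6 of the 22609 gene rows counted in mouse primary hepatocytes. They were picked by name because their counts were among those that stood most clearly above the controls after exposure to the protein LRG1, and because none of them belongs to a pathway family of the liver. The same counts chose the genes, so their levels and fold changes are given as a description, with no test. Hepatocytes, the parenchymal cells of the liver, came from male wild type C57BL/6 mice aged 4 months. They received either LRG1 protein at 20 µg/mL (3 libraries) or PBS, the buffer control (3 libraries), and RNA was taken after 16 h. Libraries were made from about 500 ng of RNA with a poly(A)-selecting, strand-marking kit and read for 50 nt from a single end. Whether the 3 samples per group were separate mice or separate cultures is not stated in the labels. The p-values below therefore cover the variation among these libraries only, and that variation may be technical.

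LRG1 (leucine-rich alpha-2-glycoprotein 1) circulates in blood and is best known from endothelium, where it modulates TGF-beta signalling. The 6 genes were not grouped by a pathway, and whether they share one was not tested. Olfm2 and Prg4 encode secreted glycoproteins, Tmeff1 a membrane protein of brain, Moxd1 a copper enzyme of the endoplasmic reticulum, 2310007B03Rik a protein of the MAB21 family and 2010011I20Rik a mitochondrial membrane protein. None is a textbook marker of hepatocytes, although Prg4 is known to be made in liver as well as in joints.

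The sequence around the start of each gene is shown as a description. The common rise of the 6 genes with LRG1 was fixed by the way they were chosen. Windows of 300 nt, running from 250 nt before to 50 nt after the annotated start, were taken from RefSeq in build GRCm38.p6, and 5 of the 6 genes had 8 windows between them, 3 for Olfm2 and 2 for 2310007B03Rik. The first window of each is printed 5' to 3' on the gene's own strand, which is the minus strand for Olfm2 and 2310007B03Rik and the plus strand for Tmeff1, Moxd1 and 2010011I20Rik. Capitals mark every match, on either strand, to the SMAD core letters CAGAC or to the AP-1 letters TGANTCA; Prg4 is named only.
Olfm2 promoter, chr9:20746247-20746546: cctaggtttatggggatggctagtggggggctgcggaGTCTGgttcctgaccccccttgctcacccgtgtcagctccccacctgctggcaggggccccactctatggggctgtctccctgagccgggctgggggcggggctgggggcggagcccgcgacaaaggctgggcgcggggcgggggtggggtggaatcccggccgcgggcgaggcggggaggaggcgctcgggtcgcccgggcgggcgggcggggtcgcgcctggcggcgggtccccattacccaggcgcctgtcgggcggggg
Tmeff1 promoter, chr4:48584924-48585223: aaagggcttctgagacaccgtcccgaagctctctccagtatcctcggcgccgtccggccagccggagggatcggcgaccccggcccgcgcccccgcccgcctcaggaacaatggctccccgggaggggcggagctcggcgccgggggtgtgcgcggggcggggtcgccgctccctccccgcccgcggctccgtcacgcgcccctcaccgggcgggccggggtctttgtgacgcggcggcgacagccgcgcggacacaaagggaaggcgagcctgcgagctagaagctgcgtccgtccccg
Moxd1 promoter, chr10:24223267-24223566: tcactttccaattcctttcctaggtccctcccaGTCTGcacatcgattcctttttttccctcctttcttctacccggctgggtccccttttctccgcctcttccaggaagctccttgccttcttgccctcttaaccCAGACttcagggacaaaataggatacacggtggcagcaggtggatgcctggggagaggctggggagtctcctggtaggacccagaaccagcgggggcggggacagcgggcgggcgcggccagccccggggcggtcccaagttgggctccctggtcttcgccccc
2310007B03Rik promoter, chr1:93160899-93161198: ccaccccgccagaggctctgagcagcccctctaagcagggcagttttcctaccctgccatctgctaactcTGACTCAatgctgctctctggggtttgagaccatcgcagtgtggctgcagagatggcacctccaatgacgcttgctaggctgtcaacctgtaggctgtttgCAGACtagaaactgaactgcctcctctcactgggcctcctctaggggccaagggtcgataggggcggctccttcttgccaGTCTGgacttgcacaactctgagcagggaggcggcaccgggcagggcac
2010011I20Rik promoter, chr2:172345327-172345626: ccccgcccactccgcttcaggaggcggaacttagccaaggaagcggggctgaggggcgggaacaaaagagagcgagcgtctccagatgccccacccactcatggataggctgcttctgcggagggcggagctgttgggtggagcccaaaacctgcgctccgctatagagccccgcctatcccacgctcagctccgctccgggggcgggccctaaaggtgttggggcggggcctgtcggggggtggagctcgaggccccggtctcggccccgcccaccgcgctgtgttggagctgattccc

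The 5 windows differed in composition. G and C made up 76.7% of the Olfm2 window, 76% for Tmeff1, 68.7% for 2010011I20Rik, 61.7% for Moxd1 and 59.7% for 2310007B03Rik, against a median of 52.7% over all 32851 promoter windows. The Tmeff1 window held 45 CpG dinucleotides and the 2310007B03Rik window 7, and the median of all windows was 7. CAGAC, the short core letters bound by SMAD proteins, matched from base 38 of the first Olfm2 window. It matched in Moxd1 from bases 34 and 137, and in 2310007B03Rik from bases 172 and 252. It had no match in Tmeff1 or 2010011I20Rik, and 49.6% of all windows held at least 1 match. Among the printed windows, the AP-1 letters TGANTCA matched only in that of 2310007B03Rik, from base 71, and 7.81% of all windows held them. Neither the SMAD palindrome GTCTAGAC (0.213% of all windows), nor the TEAD letters GGAATG (14.7%), nor the TATA letters TATAAA (13.6%) matched in any of the 5 printed windows. Of the windows not printed, the second of Olfm2 held CAGAC matches from bases 196 and 225, the third of Olfm2 held TATAAA from base 250, and the second of 2310007B03Rik held CAGAC from bases 94 and 174. A match is a run of letters, not a site shown to be bound.

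Gene counts summed to 19670496 to 23036332 in the LRG1 libraries and to 18625748 to 19774537 in the PBS libraries. After a filter on low counts, edgeR's quasi-likelihood test with Benjamini-Hochberg adjustment over 12301 genes called 3140 of them (25.5%) higher and 3177 (25.8%) lower with LRG1 at an adjusted p under 0.05, together 51.4%. All 6 genes passed the filter. Moxd1, Tmeff1 and 2310007B03Rik would not have passed it on the PBS libraries alone. The filter asks for about 10 counts in 3 libraries. In their lowest PBS library Moxd1 had 0 counts, Tmeff1 7 and 2310007B03Rik 4. Every LRG1 library lay above every PBS library for each of the 6 genes, as it did for 29% of all tested genes. That share is given as background only, because the genes were chosen on this contrast. Levels below are CPM, the counts of a gene scaled to a common library total.

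Olfm2 encodes olfactomedin 2, a secreted protein that in human cells is induced by TGF-beta and takes part in smooth muscle differentiation by binding the transcription factor SRF. It had 1987, 2399 and 2016 counts in LRG1 replicates 1 to 3, against 122, 121 and 101 counts in PBS replicates 1 to 3. The groups were far apart, and the lowest LRG1 library stood 15.2-fold above the highest PBS library in CPM. The mean was 101 ± 2.33 CPM with LRG1 and 6.02 ± 0.596 CPM with PBS (SD, n = 3 each), a log2 fold change of 4.07 (SE 0.083). The gene was thus counted in every PBS library at a low level, well above the limit of 3 counts that a count of 0 allows.

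Prg4 encodes lubricin, the mucin-like lubricant that synovial cells and superficial chondrocytes secrete into joints. It had 18123, 21470 and 16945 counts with LRG1 and 1567, 1812 and 1509 counts with PBS. It gave the most reads of the 6 genes in each LRG1 library. The mean was 894 ± 37.4 CPM with LRG1 and 85.7 ± 10.4 CPM with PBS (SD, n = 3 each), 10.4-fold higher, with a log2 fold change of 3.38 (SE 0.057). PBS replicate 2, at 97.7 CPM, stood above the 79.3 and 80.1 CPM of PBS replicates 1 and 3, and all 3 were far below the lowest LRG1 value of 854 CPM. Exons of Prg4 overlap those of Tpr, a nuclear pore gene on the opposite strand, and whether the counting used the strand is not given in the sources used here. Tpr had 6009, 7264 and 6008 counts with LRG1 and 6873, 6212 and 5987 counts with PBS. Its mean was 305 ± 7.55 CPM with LRG1 and 333 ± 15.1 CPM with PBS, a log2 fold change of -0.13 (edgeR adjusted p = 0.0106), so the overlapping gene fell while Prg4 counts were higher. The Tpr call was lost without PBS replicate 1.

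**Figure D1:**
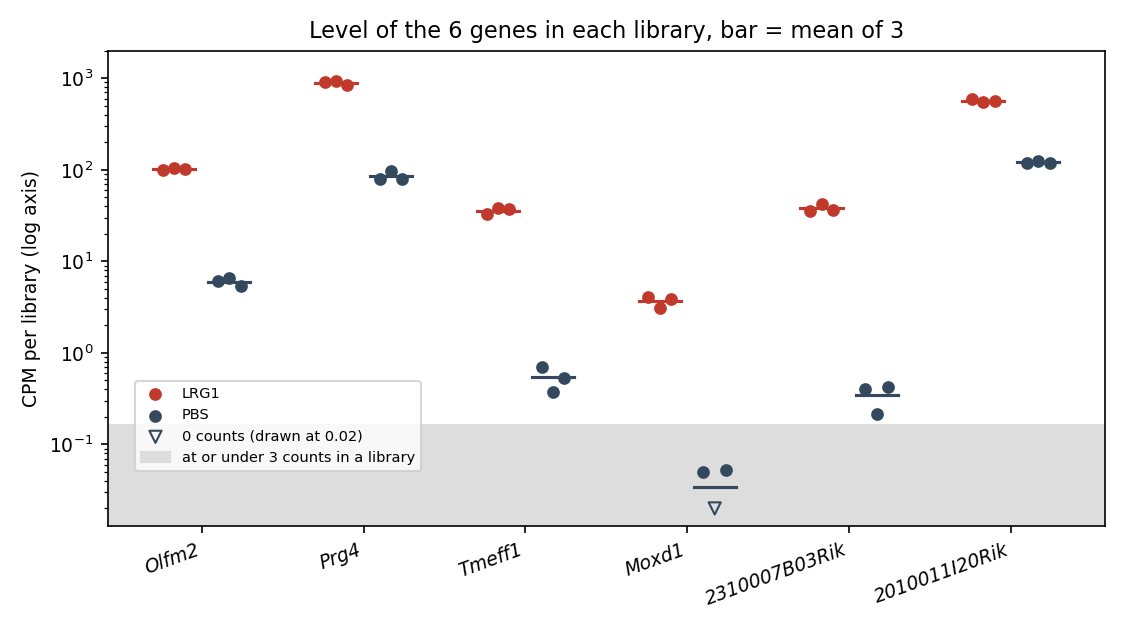
Level of each of the 6 genes by library, in CPM on a log axis, with LRG1 libraries (red) to the left of PBS libraries (dark); points are libraries, bars are group means of 3 and the grey band covers levels at or under 3 counts. For every gene the 3 LRG1 points lie above the 3 PBS points, by 4.47-fold (2010011I20Rik) to 84.3-fold (2310007B03Rik) between the nearest libraries, and the open triangle is the PBS library in which Moxd1 had 0 counts.

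Tmeff1 encodes a transmembrane protein with follistatin-like and EGF-like domains, found mainly in brain, that in Xenopus inhibits Nodal signalling through its co-receptor Cripto. It had 656, 880 and 735 counts with LRG1, against 14, 7 and 10 counts with PBS. A handful of reads per PBS library makes the lower level imprecise, while the LRG1 level rests on at least 656 reads per library. The mean was 35.9 ± 2.84 CPM with LRG1 and 0.539 ± 0.166 CPM with PBS (SD, n = 3 each), a log2 fold change of 6.03 (SE 0.27). The ratio of the group totals, 2271 to 31 counts, was 66.4, with a 95% counting interval of 46.6 to 97.9 that covers counting error alone.

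Moxd1 encodes a monooxygenase related to dopamine beta-hydroxylase whose substrate is not known. It had 83, 72 and 77 counts with LRG1, against 1, 0 and 1 counts with PBS. All 3 PBS libraries were under the limit that a count of 0 allows, 3 counts or 0.152 to 0.162 CPM, so the gene was not detectably expressed in PBS libraries at this depth. The mean was 3.71 ± 0.533 CPM with LRG1 and 0.0346 ± 0.03 CPM with PBS (SD, n = 3 each). The ratio of the group totals, 232 to 2 counts, was 105, with a 95% counting interval of 28.8 to 873. The width of that interval comes from the 2 PBS reads, and the fitted log2 fold change of 6.49 (SE 1) depends on the prior count added to them.

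2310007B03Rik (Mab21l4) belongs to the MAB21 family, and in human skin its product promotes keratinocyte differentiation. It had 719, 980 and 723 counts with LRG1, against 8, 4 and 8 counts with PBS. No member had a wider gap between the nearest libraries, 84.3-fold in CPM. The mean was 38.2 ± 3.6 CPM with LRG1 and 0.348 ± 0.115 CPM with PBS (SD, n = 3 each), a log2 fold change of 6.75 (SE 0.34). The ratio of totals, 2422 to 20 counts, was 109.7 with a counting interval of 70.9 to 179.9, which overlaps the intervals of Moxd1 and Tmeff1, and the order of these 3 ratios was not resolved.

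2010011I20Rik (Fam210b) encodes a protein of the inner mitochondrial membrane studied in red cell precursors, where it takes part in iron supply for heme. It had 11886, 12796 and 11081 counts with LRG1, against 2344, 2295 and 2247 counts with PBS. It differed least between the groups among the 6 genes and had the most PBS counts. The mean was 568 ± 21.2 CPM with LRG1 and 121 ± 2.77 CPM with PBS (SD, n = 3 each), 4.71-fold higher, with a log2 fold change of 2.24 (SE 0.04). Together the 6 genes took 1666, 1667 and 1591 CPM in the LRG1 libraries, against 205, 228 and 206 CPM in the PBS libraries. In these bulk samples, more expressing cells and more RNA per cell cannot be told apart for any of the 6 genes.

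The 6 genes held different places by fold and by level. By fitted log2 fold change over 12301 tested genes, 2310007B03Rik was in place 7, Moxd1 in place 8, Tmeff1 in place 10, Olfm2 in place 45, Prg4 in place 77 and 2010011I20Rik in place 153. The gene just above 2310007B03Rik was Murc (7.58), with no PBS count, and the gene just below Tmeff1 was Trim67 (5.99). Around 2010011I20Rik, at 2.24, stood Epb4.1l2 at 2.24 and Hhipl1 at 2.23, neither of which was among the chosen genes. In all, 182 tested genes were called and at least 4-fold higher, so the chosen 6 are a small part of them.

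Levels of different genes were compared per length, as CPM per kilobase of exon. By the gain in this level, LRG1 minus PBS, Prg4 was in place 15 of 22165 genes with a known length, 2010011I20Rik in place 25 and Olfm2 in place 90. 2310007B03Rik was in place 277, Tmeff1 in place 310 and Moxd1 in place 2707. Among 12161 tested genes with a length, none had both a higher fold change and a higher LRG1 level per kilobase than Olfm2, Prg4 or 2310007B03Rik. For Tmeff1 the only such gene was 2310007B03Rik, and for Moxd1 they were 2310007B03Rik and F13a1. The chosen genes lay along or near the outer edge of the plot of fold against level, and the values plotted there are the ones they were picked on.

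**Figure D2:**
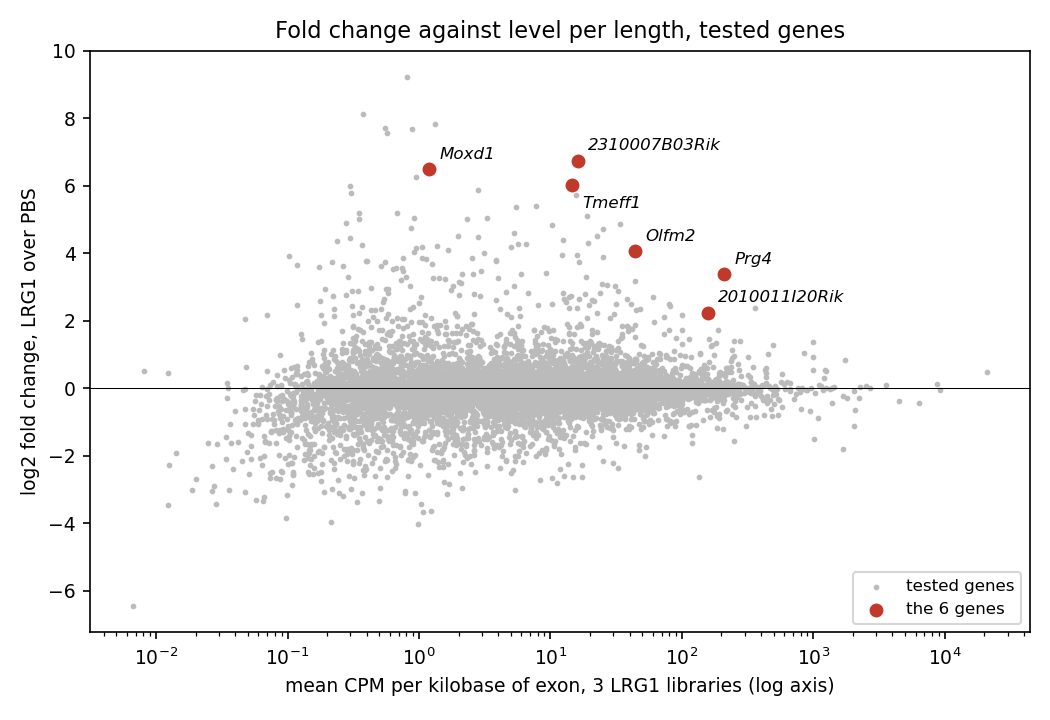
Fitted log2 fold change, LRG1 over PBS, against the mean level in the 3 LRG1 libraries in CPM per kilobase of exon (log axis). Each grey point is a tested gene with a known length and the red points are the 6 genes, which run along the upper right edge from Moxd1 (log2 fold change 6.49, level 1.2) to Prg4 (3.38, level 209).

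Set against genes of liver function, Prg4 and 2010011I20Rik reached the level of plasma protein genes with LRG1. The comparison list held 25 hepatocyte genes. With LRG1, Prg4 had 209 ± 8.73 CPM per kilobase, against 20.02 ± 2.43 with PBS. It stood above 16 of the 25 genes with LRG1, between Apoc3 (350 ± 17.3), a lipoprotein gene, and the fibrinogen gene Fga (192 ± 21.6), whose range it overlapped. In PBS libraries it stood above 7 of the 25, just under Ass1 (24.9) of the urea cycle. In place among all 22165 genes it was 191 to 221 in LRG1 libraries and 3142 to 3725 in PBS libraries.

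2010011I20Rik had 157 ± 5.87 CPM per kilobase with LRG1 and 33.3 ± 0.765 with PBS. With LRG1 it was above 14 of the 25 hepatocyte genes and did not differ from the apolipoprotein gene Apob (163 ± 7.2) beyond their spread. The other apolipoprotein genes of the list were higher with LRG1: Apoa2 (881 ± 47.9), Apoa1 (477 ± 17.7) and Apoc3 (350 ± 17.3). With PBS it was above 8 of the 25, just under the asialoglycoprotein receptor gene Asgr1 (45.2). It was thus the only one of the 6 besides Prg4 that exceeded any of these liver genes in PBS libraries.

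Olfm2 had 43.9 ± 1.01 CPM per kilobase with LRG1 and 2.61 ± 0.258 with PBS. With LRG1 it was above 9 of the 25 genes, between the antitrypsin gene Serpina1a (47.5 ± 3.35) and Asgr1 (41.4 ± 1.32). Tmeff1 had 14.6 ± 1.16 with LRG1 and 0.219 ± 0.0674 with PBS. 2310007B03Rik had 16.1 ± 1.52 with LRG1 and 0.147 ± 0.0487 with PBS. Both were above 6 of the 25 genes with LRG1, the nearest of them below being the tryptophan dioxygenase gene Tdo2 (11.7 ± 1.22), and their own ranges overlapped in both groups. Moxd1, at 1.2 ± 0.173 with LRG1 and 0.0112 ± 0.00969 with PBS, was above only Tat (0.501 ± 0.0818) with LRG1. None of these 4 genes was above any of the 25 in PBS libraries, where the lowest was Otc (3.38 ± 0.147).

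The order of the 6 genes per kilobase was the same in each of the 3 LRG1 libraries: Prg4, 2010011I20Rik, Olfm2, 2310007B03Rik, Tmeff1 and Moxd1 from high to low. In each of the 3 PBS libraries it was 2010011I20Rik, Prg4, Olfm2, Tmeff1, 2310007B03Rik and Moxd1. Set against albumin, the leading plasma protein gene, Alb had 9123 ± 184 CPM per kilobase with LRG1 and 9457 ± 332 with PBS. The Alb level was 43.7 times that of Prg4 with LRG1 and 472 times with PBS. For 2010011I20Rik these ratios were 58.1 with LRG1 and 284 with PBS, and for Olfm2 they were 208 with LRG1 and 3625 with PBS.

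**Figure D3:**
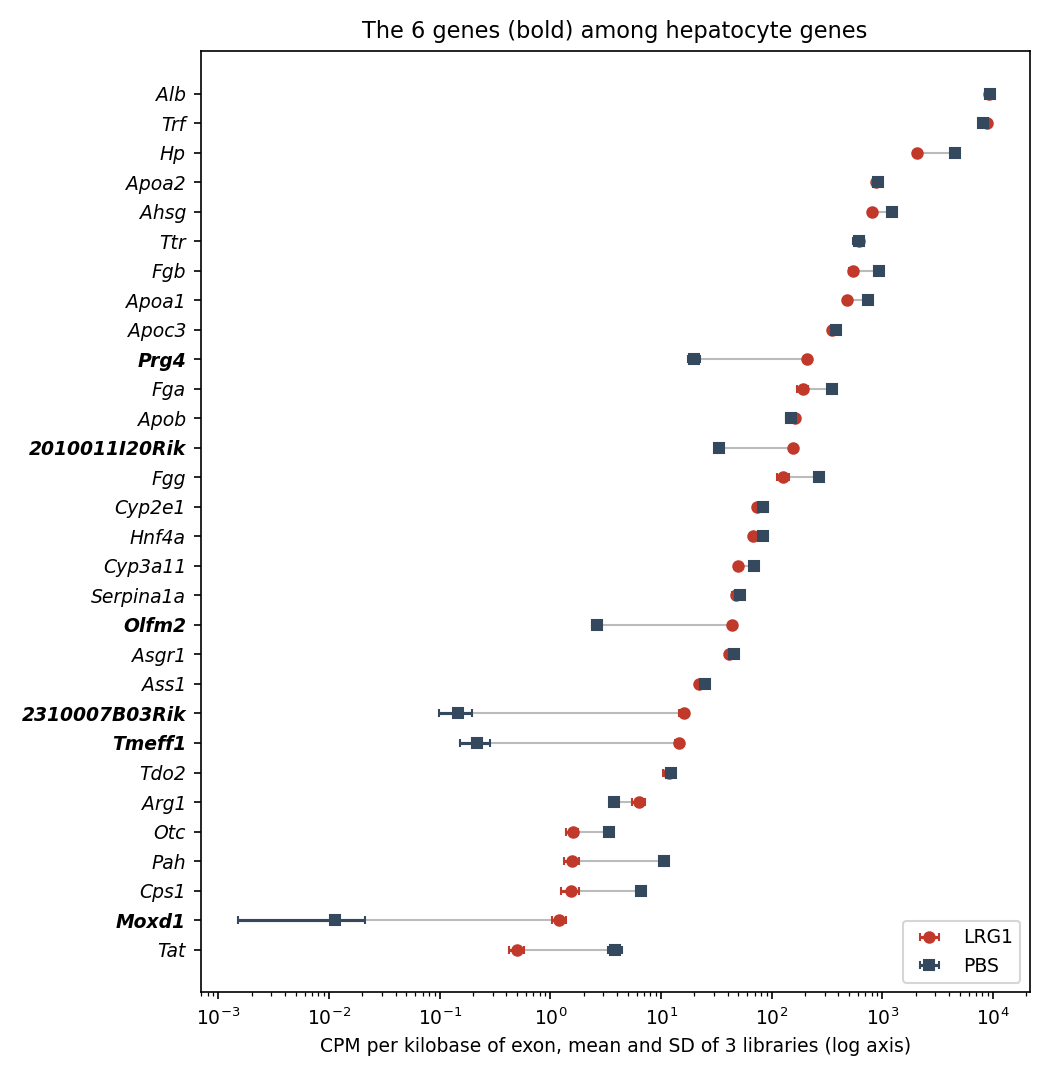
Mean level in CPM per kilobase of exon (log axis) of the 6 genes (bold) and of hepatocyte genes of the list, ordered by the LRG1 level; red circles are LRG1 and dark squares PBS, with SD bars over 3 libraries each. With LRG1 the 6 genes spread from 1.2 (Moxd1) to 209 (Prg4), inside the range of the liver genes, while with PBS 4 of them lie below the lowest liver gene, Otc at 3.38.

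The hepatocyte genes themselves moved between the groups. Of the 25, edgeR called 2 higher (Trf and Arg1) and 15 lower, with a median log2 fold change of -0.19, against 0.0093 over all tested genes. Over all tested genes, 25.5% were called higher and 25.8% lower. With other scalings, filters or tests, or with 1 library left out, 2 to 3 of the 25 were higher and 13 to 16 lower. Hp, the haptoglobin gene, fell to 2749.6 ± 172 CPM with LRG1, against 6028 ± 217 CPM with PBS (edgeR adjusted p = 5.74e-16). Tat, which degrades tyrosine, had 1.19 ± 0.194 CPM with LRG1 and 9.2 ± 1.33 CPM with PBS (edgeR adjusted p = 1.05e-12). The place of a member among these genes therefore reflects the levels of both, as for Fga, at 192 CPM per kilobase with LRG1 and 351 with PBS. Their summed level was 54152 to 55679 CPM with LRG1 and 59455 to 60949 CPM with PBS, so the hepatocyte label held in all 6 libraries.

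The genes were picked for a clear separation, which depends in part on the spread between replicates, so that spread is given as a description. For each gene the coefficient of variation (CV) of CPM within a group was set beside tested genes whose mean count in that group was from 20% below to 25% above its own. Prg4 had a CV of 12.1% in PBS libraries, against a median of 3.58% for 1325 genes of like count, 99.7% of which had a lower CV. With LRG1 its CV was 4.18%, against a median of 2.76% for 46 genes. 2310007B03Rik had 9.42% with LRG1, against 4.41% for 1499 like genes, and Tmeff1 had 7.92%, against 4.51% for 1458 like genes. Olfm2 with LRG1 (2.3% against 3.18%) and 2010011I20Rik with PBS (2.29% against 3.36%) varied less than the median of their like genes, while 2010011I20Rik with LRG1 varied more (3.74% against 2.43%). PBS replicate 2 was the highest PBS library for Prg4, Olfm2 and 2010011I20Rik and the lowest for Tmeff1, Moxd1 and 2310007B03Rik.

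The genes whose values lay nearest were found by the Euclidean distance over the 6 libraries' log2 CPM, which is not scaled for length and takes in both level and change. Tmeff1 and 2310007B03Rik were each other's nearest gene, at a distance of 0.965. Both then had Wisp1, a matricellular CCN protein gene, as the next (1.33 from Tmeff1 and 2.14 from 2310007B03Rik). Nearest to Olfm2 was Lox (0.969), the lysyl oxidase gene that cross-links collagen, which had 75.6 CPM with LRG1 and 4.89 CPM with PBS. For Prg4 the nearest was 2010011I20Rik (1.44), but the nearest to 2010011I20Rik was Las1l (0.627), a ribosome assembly gene, followed by Junb (1.03). Moxd1 lay nearest to Cym (0.65), the chymosin gene, and then to Ehf (0.89), an epithelial transcription factor gene.

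None of the tested relatives and known partners of the 6 genes was at least 4-fold higher with LRG1. Only 182 of all 12301 tested genes were, so a short list with none does not set the relatives apart. The 6 lists, written with earlier results of these data known, held 84 genes with a row, of which 52 were tested. EdgeR called 21 higher (40.4%) and 18 lower (34.6%), against 25.5% and 25.8% of all tested genes, with a median log2 fold change of 0.03. In what follows, a bare value before an edgeR adjusted p, or after "rose by" or "fell by", is a log2 fold change.

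In the olfactomedin family of Olfm2, 6 of 12 genes were tested, with 2 called higher, 3 lower and a median of -0.39. Olfml1, another secreted olfactomedin, fell to 1.4 ± 0.129 CPM with LRG1, against 8.52 ± 0.642 CPM with PBS (log2 fold change -2.6, edgeR adjusted p = 1.54e-12). Olfml3 rose to 4.25 ± 0.627 CPM, against 2.31 ± 0.277 CPM (0.87, edgeR adjusted p = 0.000234). Olfm4, Myoc and Lphn3 had no counts. Of the smooth muscle partners of Olfm2, 10 were tested, 5 were higher and 4 lower. The lower count was 2 without LRG1 replicate 1 or 3 or PBS replicate 2, where Cnn1 and Myh11 lost their calls. Hes1, one of the higher genes, lost its call with DESeq2 and without LRG1 replicate 3 or PBS replicate 2. Srf, the known binding partner in human cells, fell by 0.46 on the log2 scale (edgeR adjusted p = 1.49e-07). Smtn, a smooth muscle cytoskeletal gene, rose to 66.4 ± 2.66 CPM with LRG1, against 30.1 ± 2.04 CPM with PBS (1.14, edgeR adjusted p = 7.26e-14).

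Among 14 tested genes of joint lubrication and of Prg4 receptors, 3 were higher and 6 lower, with a median of -0.14. Cd44, a hyaluronan receptor that binds lubricin in human cells, rose to 309.6 ± 10.4 CPM with LRG1, against 169.9 ± 12.2 CPM with PBS (0.87, edgeR adjusted p = 1.25e-13). Tlr2, another reported receptor, rose by 0.43 (edgeR adjusted p = 3.9e-06), while Tlr4 had 6.54 ± 0.448 CPM with LRG1 and 7.14 ± 0.311 CPM with PBS and did not pass the test. The 6 lower genes were Lgals3, Tlr5, Hyal1, Creb5, Hpx and Vtn. Lgals3 fell to 261 ± 4.47 CPM with LRG1, against 469.8 ± 22.2 CPM with PBS (-0.85, edgeR adjusted p = 1.67e-14). Tlr5 fell by 0.84 (edgeR adjusted p = 1.1e-08). The growth factor gene Gdf5 of joints and the cathepsin gene Ctsg had no counts.

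Of the Nodal and follistatin-domain genes listed for Tmeff1, 9 were tested, 5 were higher and 1 lower, with a median of 0.32. Without LRG1 replicate 1 the higher count was 3, since Acvr2b and Fstl1 lost their calls, and Fstl1 also lost its call without LRG1 replicate 3 or PBS replicate 3. The lower count was 0 under a filter of at least 1 CPM in 3 libraries, at which Lefty1 was not tested. The Cripto gene Tdgf1, the co-receptor gene Cfc1 and Lefty2 had no counts in any library, and Nodal had 0 counts with LRG1 and 3 with PBS. Fstl3, a secreted activin antagonist, rose to 4.73 ± 0.74 CPM with LRG1, against 2.35 ± 0.106 CPM with PBS (1.02, edgeR adjusted p = 2.3e-05). Lefty1, a Nodal antagonist, fell to 0.284 ± 0.0752 CPM, against 1.05 ± 0.177 CPM (-1.86, edgeR adjusted p = 0.000141). The close paralog Tmeff2 had 1 count with LRG1 and 0 with PBS.

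For Moxd1, 9 copper and monooxygenase genes were tested, 3 were higher and 3 lower, with a median of 0.04. Its relatives Moxd2 and Dbh and the gene Th of catecholamine synthesis had no counts. Pam, which amidates peptides, fell by 0.54 (edgeR adjusted p = 6.17e-08), and the copper exporter gene Atp7b fell to 18 ± 2.56 CPM with LRG1, against 38.8 ± 2.68 CPM with PBS (-1.11, edgeR adjusted p = 8.12e-11). The 3 higher genes were Atp7a (0.45, edgeR adjusted p = 2.13e-05), Cyb561d1 (0.36, edgeR adjusted p = 0.00205) and Cyb561 (0.22, edgeR adjusted p = 0.00129). Of 4 tested genes related to MAB21 proteins, Itpripl2, Itprip and Itpripl1 were higher and Mab21l3 was lower. Itpripl2 rose to 108 ± 3.89 CPM with LRG1, against 61.6 ± 2.04 CPM with PBS (0.81, edgeR adjusted p = 6.12e-13), and Mab21l3 fell to 1.01 ± 0.228 CPM, against 2.68 ± 0.325 CPM (-1.4, edgeR adjusted p = 1.77e-05). The Itpripl1 call (0.28) was lost when LRG1 replicate 1 or 2 or PBS replicate 1 or 2 was left out.

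Genes beside the 6 on the chromosome were looked up as the pair on each side, 24 genes in all. Only genes with a row in the counts were taken, so an annotated gene in between may have been passed over. Of the 16 that were tested, edgeR called 11 higher, 2 lower and 3 neither, and the median log2 fold change was 0.42. Over all 12301 tested genes, 25.5% were called higher and 25.8% lower, with a median of 0.0093. Beside Tmeff1 on chromosome 4, Murc (RefSeq symbol Cavin4), a muscle caveolar protein gene, had 20, 34 and 21 counts with LRG1 and none with PBS. With the PBS libraries together set at a floor of 3 counts, it was at least 22.7-fold higher (edgeR adjusted p = 8.88e-08). On the other side of Tmeff1, 5730528L13Rik (Msantd3) rose to 22.4 ± 0.985 CPM, against 13.2 ± 0.59 CPM (0.76, edgeR adjusted p = 2.12e-08).

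Beside Moxd1 on chromosome 10, Ctgf, a secreted matricellular protein gene and a known TGF-beta target, had 26094, 33041 and 27519 counts with LRG1 and 10498, 11265 and 10300 counts with PBS. It rose by 1.29 on the log2 scale (SE 0.046, edgeR adjusted p = 1.34e-16). Stx7 rose by 0.33 (edgeR adjusted p = 2.56e-06) and Enpp1 by 0.64 (edgeR adjusted p = 4.36e-06). Taar9, the other neighbour, had no counts.

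Beside 2310007B03Rik on chromosome 1, Agxt, a peroxisomal transaminase gene of hepatocytes, rose to 15.6 ± 1.55 CPM with LRG1, against 5.51 ± 1.07 CPM with PBS (1.5, edgeR adjusted p = 3.01e-10). Sned1, an extracellular matrix gene, rose to 5.26 ± 0.885 CPM, against 1.73 ± 0.133 CPM (1.61, edgeR adjusted p = 7.47e-08). The outer neighbours differed from these: Kif1a fell by 0.87 (edgeR adjusted p = 0.0237), a call lost without LRG1 replicate 1 or 2 or PBS replicate 1, and Mterfd2 had 24.7 ± 2.26 CPM with LRG1 and 25.7 ± 1.83 CPM with PBS. Beside Olfm2 on chromosome 9, Col5a3 rose by 0.77 (edgeR adjusted p = 0.000146). Near 2010011I20Rik on chromosome 2, Cstf1 rose by 0.17 (edgeR adjusted p = 0.0253), and Aurka, at 3.64 ± 0.51 CPM with LRG1 and 4.31 ± 1.26 CPM with PBS, did not pass the test. The Cstf1 call was lost with DESeq2, with the replicate block, and without LRG1 replicate 2 or PBS replicate 1 or 2. That of Ubl5 near Olfm2 (0.15) was lost with DESeq2 and without LRG1 replicate 1 or PBS replicate 2.

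**Figure D4:**
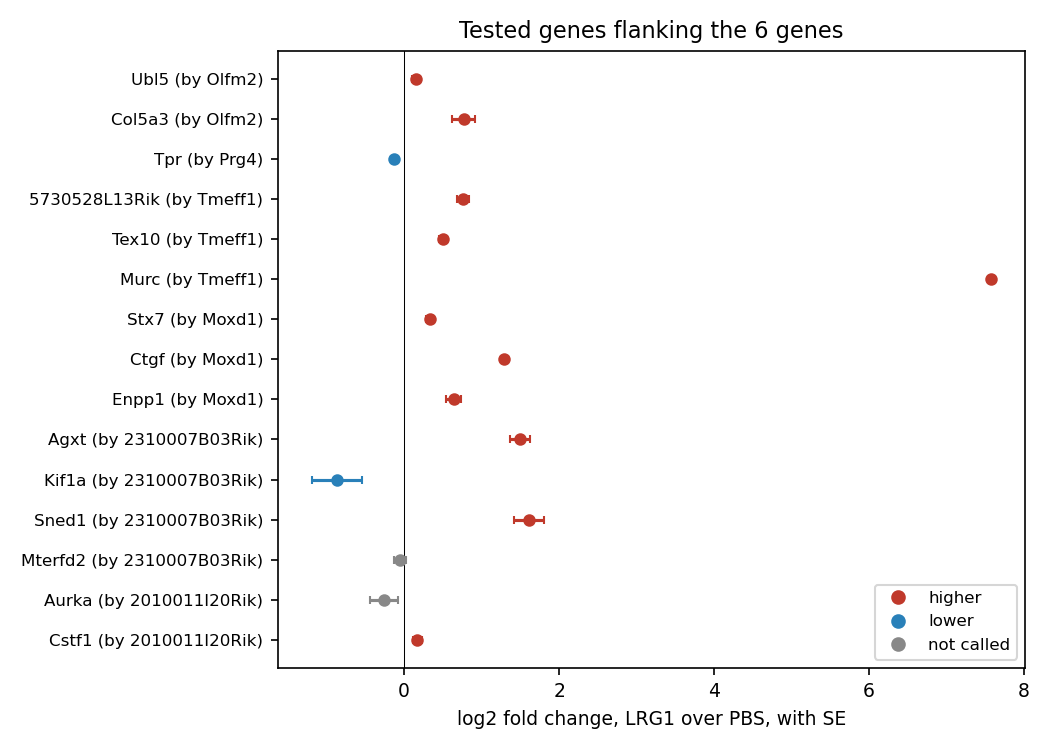
Log2 fold change, LRG1 over PBS, of tested neighbours of the 6 genes, with SE bars (none for Murc, which had no PBS count); red points were called higher, blue lower and grey neither by edgeR at an adjusted p under 0.05. Apart from Murc (7.58, with no PBS count) no neighbour shown exceeds 1.61 (Sned1), and Kif1a lies lowest at -0.87.

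Genes of other cell types were measured because Prg4, Olfm2, Tmeff1 and 2310007B03Rik are known from joint, muscle, brain and skin. Over all tested genes, 25.5% were called higher and 25.8% lower. Calls in these short lists stand beside those shares and are given as description only. Of the 11 joint and cartilage markers 2 were tested, and Acan, Gdf5 and Chad had no counts. Sox9 was called higher (84.3 ± 2 CPM with LRG1, 52.6 ± 0.498 CPM with PBS). Clic5 was called lower (1.74 ± 0.333 CPM with LRG1, 5.98 ± 0.0393 CPM with PBS). The whole list summed to 84.1 to 88.6 CPM with LRG1 and 58.5 to 59.7 CPM with PBS, most of it Sox9. Without Sox9 and Clic5 the 9 remaining joint markers summed to 0.252 to 0.349 CPM with LRG1 and 0.539 to 0.849 CPM with PBS, against 854 CPM or more of Prg4 with LRG1. Of 6 tested smooth muscle markers 3 were higher and 2 lower (Cnn1 and Myh11). The lower count was 0 without LRG1 replicate 1 or 3 or PBS replicate 2, and 1 without LRG1 replicate 2 or PBS replicate 1 or 3. The sum of the list was 248 to 292 CPM with LRG1 and 214 to 216 CPM with PBS. Most of it came from Acta2, Tagln, Cnn1 and Smtn. Without these the sum was 1.01 to 1.2 CPM with LRG1 and 1.54 to 1.83 CPM with PBS, and Myocd had no counts.

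Neuron markers summed to 1.86 to 2.79 CPM with LRG1 and 3.54 to 3.93 CPM with PBS, and Snap25 had no counts. Most of that was Syt1, the 1 tested gene of the list, at 1.59 ± 0.303 CPM with LRG1 and 2.68 ± 0.0403 CPM with PBS (-0.75, edgeR adjusted p = 0.0032), and the remaining 9 genes summed to 0.453 to 0.846 CPM with LRG1 and 0.911 to 1.24 CPM with PBS. Squamous markers summed to 52.8 to 59.6 CPM with LRG1 and 40.1 to 41 CPM with PBS. That list moved both ways, with 2 called higher and 2 lower of 5 tested. The higher count was 1 without LRG1 replicate 2 or 3 or PBS replicate 1 or 3, and with DESeq2, where Lor lost its call. Sfn, a stratified epithelium gene also expressed elsewhere, rose to 45.7 ± 1.95 CPM, against 10.8 ± 1.85 CPM (2.08, edgeR adjusted p = 1.74e-15). Krt5, the basal keratin gene, fell to 1.17 ± 0.0823 CPM, against 3.83 ± 0.297 CPM (-1.7, edgeR adjusted p = 8.68e-08), and Ivl, the involucrin gene, fell to 4.81 ± 1.08 CPM, against 23.2 ± 1.29 CPM (-2.25, edgeR adjusted p = 6.03e-14). Krt14, Trp63 and Krtdap had no counts.

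Stellate cell and fibroblast markers summed to 135 to 144 CPM with LRG1 and 40.3 to 51.8 CPM with PBS. The gap lay in Col1a1, a collagen gene that had 110.2 ± 4.96 CPM with LRG1 and 11.2 ± 2.3 CPM with PBS (3.3, edgeR adjusted p = 1.08e-19). Without it the list summed to 28.2 to 31.8 CPM with LRG1 and 30.6 to 38.1 CPM with PBS. Of its 9 tested genes 1 was higher and 1 lower, and 2 were lower without PBS replicate 2. Endothelial markers summed to 96.3 to 99.5 CPM with LRG1 and 74.1 to 79 CPM with PBS, with 1 of 10 higher (Stab1) and 2 lower. Stab1 alone made that gap, and without it the list summed to 48.2 to 53.3 CPM with LRG1 and 55.1 to 60.02 CPM with PBS. Macrophage markers summed to 187 to 213 CPM with LRG1 and 225 to 269 CPM with PBS, with 1 of 8 higher (Marco) and 1 lower (Cd68). Without Cd68 the list summed to 12.7 to 17.6 CPM with LRG1 and 12.1 to 15.1 CPM with PBS. The Marco call was lost with DESeq2 and without LRG1 replicate 2 or 3 or PBS replicate 1. Other genes of the list gained a higher call: C1qa and Csf1r without LRG1 replicate 2, C1qa with no filter, and C1qb without PBS replicate 1. The higher count thus ran from 0 to 2 over the settings. The lower count was 2 with no filter and when any 1 of the LRG1 libraries or PBS replicate 2 was left out.

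Mesothelial markers summed to 3.09 to 3.68 CPM with LRG1 and 15.7 to 21.7 CPM with PBS, and Upk3b, Upk1b, Wt1, Gpm6a and Bnc1 had no counts. Nearly all of it was Krt19, a keratin gene shared with the cholangiocyte list, which fell to 3.24 ± 0.248 CPM with LRG1, against 18.4 ± 3.07 CPM with PBS (-2.5, edgeR adjusted p = 1.24e-13). The other 7 mesothelial genes summed to 0 to 0.151 CPM with LRG1 and 0 to 0.106 CPM with PBS. Cholangiocyte markers summed to 4330.2 to 4647 CPM with LRG1 and 4464 to 4651 CPM with PBS, nearly all of it Spp1. Without Spp1 they summed to 91.7 to 95.2 CPM with LRG1 and 86.1 to 94.9 CPM with PBS, and genes within the list moved in opposite directions. Krt19 and Prom1 (-2.11, edgeR adjusted p = 1.65e-12) fell and Sox9 rose (0.68, edgeR adjusted p = 1.47e-11), and 2 genes were higher without LRG1 replicate 3 or PBS replicate 2. Lymphocyte markers summed to 0.82 to 1.05 CPM with LRG1 and 0.431 to 0.962 CPM with PBS, with 0 of 1 tested gene called, and 1 higher without PBS replicate 1. What part any of these marker genes, or the cells they come from, has in the levels of the 6 genes was not tested.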

How the data were processed

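RNA was measured in 6 libraries of mouse primary hepatocytes, 3 given LRG1 and 3 given PBS, grouped by the sample labels. The deposited values are raw read counts per gene symbol, 1 table per library. Per the submitters' processing notes, bcl2fastq, TopHat2 and HTSeq were used with build mm9; their versions, the annotation and the strand setting are not given in the sources. The 5 HTSeq summary rows per table entered neither library sizes nor tests. Among uniquely aligned reads, 8.96 to 10.3% hit no gene and 0.258 to 0.28% hit several, while 58.2 to 59.3% of the summed rows were multiple alignments. Gene counts came to 18625748 to 23036332 per library.

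The 6 genes and all lists were chosen with earlier results of these data known. Named are the 6 genes, members of the fixed lists, the 3 genes nearest to each by distance over log2 CPM (prior count 2), the pair of flanking genes on each side, and the genes directly above and below each in rank by log2 fold change. Col1a1, Sfn, Stab1, Sox9 and F13a1 are named for a value or place they hold. A few genes that the rule selects are not reported here.

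The tests used edgeR 4.0.16 in R 4.3.3 with TMM scaling, filterByExpr (minimum count 10, leaving 12301 genes), glmQLFit and glmQLFTest on treatment alone, and Benjamini-Hochberg adjustment at 0.05. SEs are Wald errors from the negative binomial information at the fitted means and the quasi-dispersion, and none is given where a group had no counts. The procedure was tested on simulated data. Levels per kilobase used the union of exons in GENCODE M21 basic (GRCm38), with a length for 22165 of 22609 rows, holding 99.5% of gene counts. Flanking genes and RefSeq symbols came from a GRCm38 table, whose coordinates were not joined to the mm9 counts. Counting intervals are exact binomial at 95%. Replicates differed by more than sampling noise (chi-square per degree of freedom 2.84 to 4.02). Alternatives included DESeq2 1.42.0, limma 3.58.1 (voom), other scalings and filters, a replicate block and leaving out each library.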

Additional observations from a re-analysis of the deposited data

How the results depend on the processing

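No fold change of the 6 genes changed direction under any alternative. The log2 fold change of Moxd1, 6.49 as reported, was 4.81 with a prior count of 2, 6.07 with limma-voom, and 5.99 to 6.84 when 1 library was left out. It rests on 2 PBS reads. That of 2310007B03Rik, 6.75 as reported, was 6.41 with a prior count of 2 and 6.51 to 6.9 when 1 library was left out. Across all settings Olfm2 ranged over 4 to 4.13, Prg4 over 3.33 to 3.49, Tmeff1 over 5.81 to 6.28 and 2010011I20Rik over 2.2 to 2.26. Over all genes, 2718 to 3391 were called higher and 2864 to 3278 lower. Related genes gave 18 to 23 higher and 15 to 18 lower, and flanking genes 9 to 11 higher. Flanking genes called lower, 2 as reported, ranged from 0 to 2 when 1 library was left out: 1 without LRG1 replicate 1 or 2, and 0 without PBS replicate 1. With the replicate block, 2906 genes were called higher and 2984 lower. Libraries with the same replicate number did not deviate together (correlations of -0.16, -0.063 and -0.16 over 9205 genes). With 3 libraries per group, this check cannot exclude that the samples were paired. The median log2 fold change of all genes, 0.0093 as reported, was 0.0058 to 0.025 with other scalings. By mean LRG1 level per kilobase, Olfm2 was in place 1552, Prg4 in 205 and 2010011I20Rik in 308. With the length of the longest transcript, an alternative chosen after seeing the data, they were in places 1388, 229 and 326, and the places of the other 3 genes moved by less than the spread of the libraries. Depth limits Moxd1 and, less so, 2310007B03Rik and Tmeff1 in PBS libraries.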
